A study of Mus musculus with 3 samples.

Results

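The uptake of fat by blood vessel walls was followed through 10 genes in lung endothelial cells (ECs) of mice that had received melanoma cells. They were 10 of the 32285 genes counted, listed by name: *Lpl*, *Gpihbp1*, *Cd36*, *Scarb1*, *Fabp4*, *Fabp5*, *Angptl4*, *Pparg*, *Meox2* and *Ucp2*. *Lpl* and *Ucp2* were put on the list because their counts were low at 30 h in these same libraries. Their fall at 30 h is therefore a description, and it supports nothing. The C57BL/6 wild-type mice were male and between 8 and 10 weeks old at injection per the study's methods. The control library came from lungs taken 6 h after PBS was given into the tail vein. The other libraries came from lungs taken 6 h (B16F10 6h) or 30 h (B16F10 30h) after 200000 B16-F10 cells in 100 µl of PBS. B16-F10 cells are a mouse melanoma line that is caught in the first capillary bed after tail vein injection. The labels state 2 mice per treatment, pooled into 1 library per group. For the experiment with a 30 h library the study's methods state 3 per sample, so these sources differ. Pecam1-positive, Ptprc-negative cells were sorted after warm collagenase digestion in all groups. Dye-marked melanoma cells were also loaded into the 6 h library. The study asked how lung ECs change as tumor cells arrive.

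Triglyceride in the blood is carried in lipoproteins that are too large to cross the vessel wall. Lipoprotein lipase, the product of *Lpl*, splits it at the capillary surface, where GPIHBP1 moves the enzyme across the endothelial cell and holds it in place. The fatty acids released are taken up with the help of CD36 and carried inside the cell by the fatty acid binding proteins FABP4 and FABP5, while ANGPTL4 inactivates the lipase. In most tissues parenchymal cells make the lipase and ECs hold it, and the lung is known as a tissue whose capillary cells carry *Lpl* transcripts themselves.

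ECs were barcodes with 1000 to 5000 genes, under 20% mitochondrial UMIs and at least 2 UMIs of *Pecam1* plus *Cdh5*. The libraries held 11231 (control), 10583 (6 h) and 9278 (30 h) of them, with a median of 7782 to 8675.5 UMIs. A UMI marks 1 captured RNA molecule. All 6 genes of a general endothelial list were detected in each library. Between 22 and 38 EC barcodes were shared by any pair of libraries. Levels are counts per 1000000 UMIs of the summed barcodes (CPM), and brackets hold exact 95% Poisson intervals for levels, exact binomial intervals for ratios of plain CPM and Clopper-Pearson intervals for shares. They cover counting error only. The log2 ratios beside them are of (CPM + 1), so for low levels the value can lie off the middle of its interval. With 1 library per group there was no replicate check and no test between groups. No PBS library at 30 h was analysed, so the 30 h library differs from the control in both tumor cells and time. A gene was called higher or lower when the log2 ratio of (CPM + 1) was at least 0.5 in size, among the 10175 genes whose mean reached 5 CPM. *Angptl4*, *Pparg* and *Meox2* were under that mean, so 7 of the 10 genes could be called.

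At 6 h, 1 of the 7 genes was lower than in the control, *Ucp2*, against 1.81% of all genes. *Ucp2* was chosen for its fall at 30 h and the control is the same library, so nothing is read from this count. None of the 7 was higher at 6 h, against 2.57%. At 30 h, 2 were lower than in the control, *Lpl* and *Ucp2*, against 7.34% of all genes, and nothing is read from this count because both were chosen for it. Also at 30 h, *Fabp4* and *Fabp5* were higher, 2 of 7 against 5.87%. At 30 h against 6 h, *Lpl* and *Ucp2* were lower, 2 of 7 against 6.82%. That count uses the same 30 h values they were chosen for, so nothing is read from it either. *Fabp4* and *Fabp5* were again higher, 2 of 7 against 6.39%. The last call of *Fabp4* lay at the limit, with a log2 ratio of 0.50. The median log2 ratio of the 7 genes was -0.01 at 6 h and 0.08 at 30 h against the control, beside -0.01 and -0.07 over all genes. The 2 melanoma libraries share the control, so their ratios to it are not independent.

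**Figure D1:**
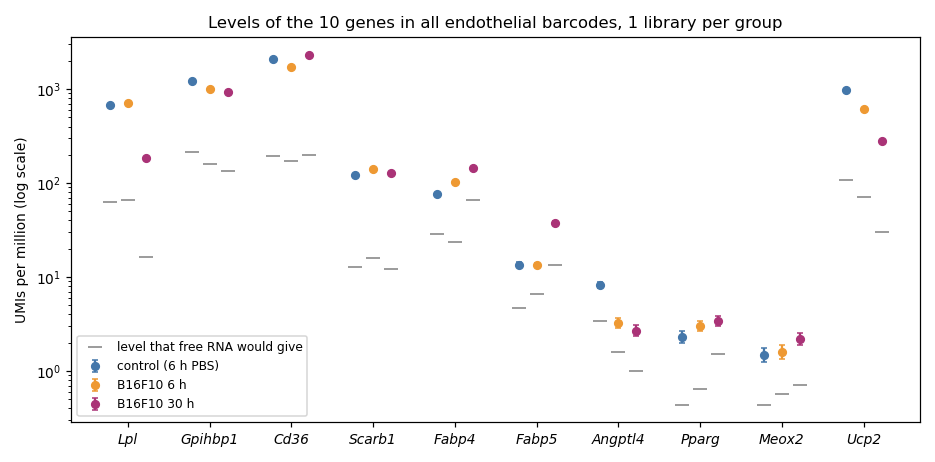
Levels of the 10 genes (x axis) in CPM on a log scale (y axis) over all endothelial barcodes of each library. Points are 1 library each with exact 95% Poisson bars, and gray dashes mark an upper value for free RNA, from red cell genes. *Lpl* and *Ucp2* stand lowest at 30 h, *Fabp4* and *Fabp5* highest, and *Gpihbp1*, *Cd36* and *Scarb1* stay within a narrow band.

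*Lpl* (ENSMUSG00000015568) lies on chromosome 8, positions 68880491 to 68907448 on the plus strand of GRCm38 (mm10). Its level was 683 CPM in the control, 710 CPM at 6 h and 183 CPM at 30 h. The control and 6 h libraries were close, and the 30 h library was far below both. The log2 ratio was 0.06 [0.04, 0.07] at 6 h and -1.89 [-1.92, -1.87] at 30 h, a 3.71-fold lower level. Among the 10175 genes, *Lpl* had the 10th lowest ratio at 30 h. *Gpihbp1*, the anchor of the lipase (ENSMUSG00000022579, chromosome 15, 75596628 to 75599481), was at 1210 CPM in control mice, at 1014 CPM at 6 h and 930 CPM at 30 h. Log2 ratios of -0.26 at 6 h and -0.38 at 30 h were under the limit for a call.

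ECs were sorted into classes with genes other than the 10. A barcode counted as aerocyte (aCap, the thin capillary cell of gas exchange), artery, vein or lymphatic (LEC) from its UMIs of 7 to 10 genes per class, and as general capillary (gCap) from 10 genes and few UMIs of the others. These classes are ranges of a per-barcode score. In each library, between 188 and 210 barcodes lay within 25% of the aCap limit and 645 to 844 within 25% of the gCap limit. Near the artery limit there were 104, 117 and 94, many beside the size of that class, and 94 to 124 near the vein limit. With limits of 2 times as many UMIs, 55, 58 and 90 artery barcodes were left. The class genes had been trimmed after their levels were seen. In gCap barcodes the median of the aCap, artery, vein and LEC scores was at most 0.910 UMIs per 10000. The gCap score did not set artery and vein apart, with medians of 78.3, 78.7 and 79.2 in artery and 86.6, 78.0 and 75.3 in vein beside 95.1, 89.1 and 91.8 in gCap itself. The control library held 7903 gCap, 1470 aCap, 163 artery, 597 vein and 72 LEC barcodes, with 1026 left without a class. The corresponding numbers were 7615, 1206, 148, 442, 54 and 1118 at 6 h. They were 6048, 1365, 205, 446, 55 and 1159 at 30 h.

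*Lpl* was a gene of gCap and, less so, of arterial barcodes. In the control the order was gCap 891 CPM [884, 898], artery 530 CPM [490, 572], vein 166 CPM [156, 177], aCap 124 CPM [119, 130] and LEC 72.2 CPM [52.5, 96.9]. None of these neighbours overlapped in the control. With the stricter class limits the artery level of *Lpl* was 359, 358 and 146 CPM, the vein level 100.2, 86.6 and 15.8 CPM and the LEC level 49.1, 80.5 and 17.8 CPM. At 6 h LEC and aCap were both at 101 CPM, and neither vein and LEC nor LEC and aCap differed beyond counting error. At 30 h gCap was at 246 CPM [242, 250] and artery at 191 CPM [172, 213], and the order of LEC, aCap and vein was again within counting error of each neighbour. The gCap level was 7.11 times the aCap level in the control, 8.91 times at 6 h and 8.61 times at 30 h. The gap was wider with the stricter class limits, at 939, 958 and 278 CPM in gCap and 71.7, 54.5 and 16.9 CPM in aCap. The gCap barcodes held 89.0%, 91.1% and 86.6% of all endothelial *Lpl* UMIs in the 3 libraries.

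The summed *Lpl* level was lower at 30 h than in the control in each class. The log2 ratio to the control was -1.85 [-1.89, -1.83] in gCap, -2.13 [-2.33, -2.02] in aCap, -1.47 [-1.66, -1.28] in artery and -2.83 [-3.19, -2.59] in vein. In LEC it was -0.76 [-1.57, -0.01], from 44 UMIs in the control and 23 at 30 h. Red cell transcripts put free RNA at 12.0%, 12.0% and 11.6% of the UMIs of a barcode, which gives 63.2 CPM of *Lpl* in the control, 65.3 CPM at 6 h and 16.3 CPM at 30 h. The LEC level in the control was within counting error of that value. In gCap barcodes *Lpl* was far above that level in each library. With the stricter class limits aCap was at 71.7, 54.5 and 16.9 CPM, beside 63.2, 65.3 and 16.3 CPM from free RNA. At 30 h vein at 15.8 CPM and LEC at 17.8 CPM were close to the free RNA level as well. What part free RNA had in the lower values of aCap, vein and LEC was not tested.

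**Figure D2:**
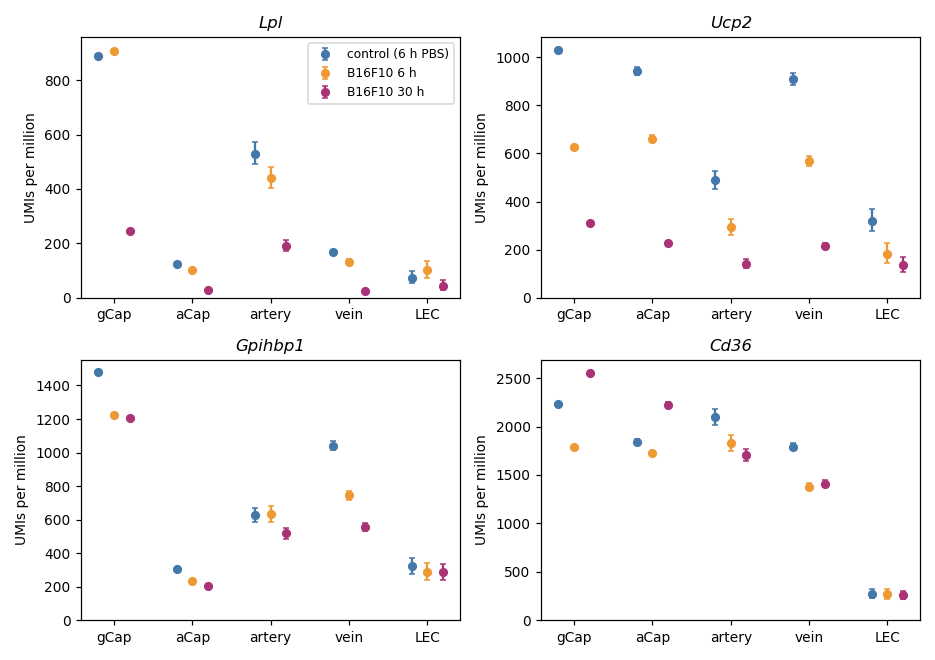
Levels of *Lpl*, *Ucp2*, *Gpihbp1* and *Cd36* (y axes, CPM) in 5 endothelial classes (x axes), with 1 point per library and exact 95% Poisson bars. *Lpl* and *Gpihbp1* are highest in gCap in each library, *Ucp2* is low at 30 h in every class, and *Cd36* is lowest in LEC.

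To compare single barcodes at 1 depth, each was thinned to 2000 UMIs. This left out 95, 93 and 51 shallower gCap barcodes. *Lpl* was then detected in 70.7% [69.6, 71.7] of gCap barcodes in the control, 72.1% [71.0, 73.1] at 6 h and 32.2% [31.1, 33.4] at 30 h. Without thinning the shares were 90.3%, 91.1% and 64.3%. In LEC, where *Lpl* was lowest in the control, the thinned shares were 11.1%, 11.1% and 5.5%, at a median of 8229.5, 7924.5 and 9284 UMIs against 7561, 7952 and 8553.5 in gCap. Between 3 and 5 *Lpl* UMIs were found in 23.3% of gCap barcodes in the control and in 3.82% at 30 h. At 30 h 0.17% held 6 to 10, against 4.64% in the control. The variance of the thinned *Lpl* counts was 1.99 times the mean in the control, 1.89 times at 6 h and 1.61 times at 30 h. The 99th percentile was 8 UMIs in the control, 8 at 6 h and 4 at 30 h. *Gpihbp1* was detected in 87.7%, 83.0% and 83.3% of the same barcodes (96.8%, 95.7% and 96.9% unthinned).

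**Figure D3:**
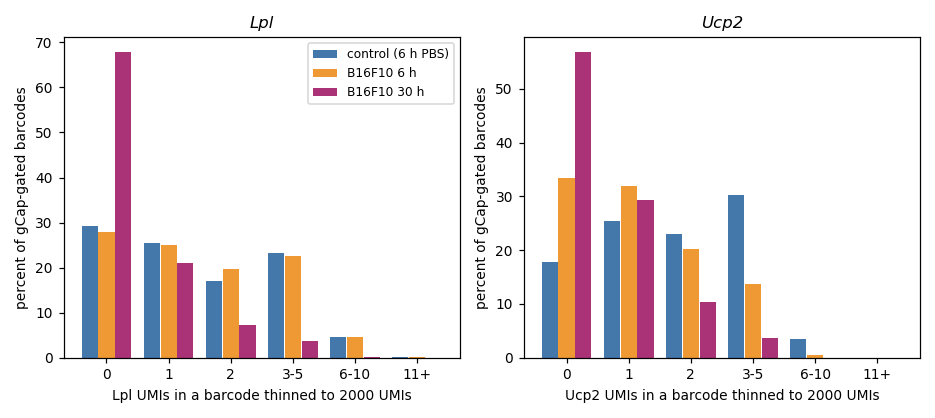
Share of gCap barcodes (y axes, percent) by number of *Lpl* (left) or *Ucp2* (right) UMIs after thinning each barcode to 2000 UMIs (x axes), with 1 bar per library. The bars at 0 UMIs are highest at 30 h for both genes, and *Ucp2* at 6 h lies between the control and 30 h.

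*Gpihbp1* had nearly the class pattern of *Lpl* in capillaries. Its level in gCap was 1479 CPM in the control, 1224 CPM at 6 h and 1208 CPM at 30 h. In aCap it was 304 CPM, 232 CPM and 207 CPM. The gCap level was 4.86, 5.27 and 5.82 times the aCap level. Veins had much *Gpihbp1* beside little *Lpl*, at 1041 CPM [1016, 1067], 745 CPM [720, 771] and 555 CPM [534, 577]. The vein log2 ratio at 30 h was -0.91 [-0.97, -0.84], against -0.29 [-0.31, -0.28] in gCap, so that the size of the difference varied by class beyond counting error.

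*Cd36*, the fatty acid transporter (ENSMUSG00000002944, chromosome 5, 17781690 to 17888801, minus strand), had the most UMIs of the 10. Its level was 2081 CPM in the control, 1709 CPM at 6 h and 2313 CPM at 30 h, with the 6 h library lowest. The log2 ratio of 0.15 [0.14, 0.16] at 30 h was under the limit for a call. In gCap the levels were 2229, 1791 and 2559 CPM, and in aCap 1846, 1726 and 2226 CPM, so both capillary classes stood highest at 30 h. At 30 h against 6 h the log2 ratio was 0.44 over all ECs, under the limit, and 0.51 [0.50, 0.53] in gCap, at the limit. Arteries and veins were lower at 30 h than in the control, with log2 ratios of -0.30 [-0.38, -0.23] and -0.34 [-0.39, -0.30]. LEC held 274, 269 and 256 CPM, beside up to 192, 170 and 201 CPM given by free RNA at the red cell share. *Scarb1*, the receptor for high-density lipoprotein (chromosome 5, 125277087 to 125341094, minus strand), was at 121, 141 and 128 CPM. Its log2 ratios to the control were 0.22 [0.18, 0.26] and 0.08 [0.04, 0.12], both under the limit. It was highest in gCap in each library, at 133, 158 and 142 CPM.

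*Ucp2* encodes a carrier of the inner mitochondrial membrane that is tied to fuel use (ENSMUSG00000033685, chromosome 7, 100493337 to 100502020, plus strand). *Dnajb13* overlaps its exons on the other strand, and whether the counting used strand is not given in the sources used here. The level of *Ucp2* was 990 CPM [984, 996] in the control, 619 CPM [614, 624] at 6 h and 281 CPM [278, 285] at 30 h. The 6 h library was below the control, and the 30 h library was below both. Of the 7 genes that could be called, *Ucp2* was the 1 called lower at 6 h, with a log2 ratio of -0.68 [-0.69, -0.66], the 63rd lowest of 10175 genes. At 30 h it was -1.81 [-1.84, -1.79], the 15th lowest. The control that *Ucp2* was chosen against enters both ratios, so both ranks are a description.

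*Ucp2* did not share the capillary pattern of *Lpl*. In the control it was at 1029 CPM in gCap, 943 CPM in aCap, 909 CPM in vein, 488 CPM in artery and 320 CPM in LEC. At 6 h these levels were 628, 660, 569, 292 and 182 CPM, and at 30 h 311, 228, 215, 142 and 134 CPM. At 30 h aCap and vein did not differ beyond counting error, nor did artery and LEC. The log2 ratios at 6 h ran from -0.81 in LEC to -0.51 in aCap, and at 30 h from -2.08 in vein to -1.25 in LEC. In thinned gCap barcodes *Ucp2* was detected in 82.2% of the control, 66.6% at 6 h and 43.3% at 30 h. In LEC, the class with least *Ucp2*, those shares were 38.9%, 25.9% and 23.6%. Unthinned, they were 95.9%, 92.8% and 83.4% in gCap and 70.8%, 51.9% and 65.5% in LEC.

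The RefSeq promoter table (GRCm38.p6) held 4 of the 10 genes, *Cd36*, *Pparg*, *Ucp2* and *Meox2*. The 250 bases before the start are shown for *Ucp2*, which was lower at both times, and for *Cd36*, an uptake gene that was not called, at chr7:100493108-100493357 (plus strand) and chr5:17835897-17836146 (minus strand). Capitals mark AGGTCA, a core site of PPAR and other nuclear receptors, and GGGCGG, a GC box, on either strand. The starts are RefSeq's. The *Cd36* stretch lies inside the gene positions given above, before an inner start, and the end of the *Ucp2* stretch runs past the first base given for that gene.
Ucp2: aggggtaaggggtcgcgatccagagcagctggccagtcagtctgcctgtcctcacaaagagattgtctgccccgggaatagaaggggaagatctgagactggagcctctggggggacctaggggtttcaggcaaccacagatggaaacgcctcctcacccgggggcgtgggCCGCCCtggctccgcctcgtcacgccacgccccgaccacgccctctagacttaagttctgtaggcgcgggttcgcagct
Cd36: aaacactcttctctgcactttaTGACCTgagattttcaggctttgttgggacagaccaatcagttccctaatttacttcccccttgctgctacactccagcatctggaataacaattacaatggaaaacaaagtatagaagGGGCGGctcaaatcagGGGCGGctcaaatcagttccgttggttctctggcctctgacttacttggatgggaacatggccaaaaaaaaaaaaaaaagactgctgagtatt
The *Ucp2* stretch held 1 GC box and no AGGTCA, and the *Cd36* stretch held 2 GC boxes and 1 AGGTCA. Neither held CACGTG, an E-box. Among the same 250 bases of 32851 mouse promoters, 32.7% held GGGCGG, 14.0% held AGGTCA and 6.02% held CACGTG on either strand. These are matches of letters, not binding sites.

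*Fabp4* and *Fabp5* encode carriers of fatty acids in the cytoplasm and lie near each other on chromosome 3 (10204088 to 10208576 on the minus strand and 10012548 to 10016607 on the plus strand). *Fabp4* was at 76.0 CPM [74.2, 77.8] in the control, 102 CPM [100.3, 105] at 6 h and 146 CPM [143, 148] at 30 h. The 30 h library was highest, with a log2 ratio of 0.93 [0.90, 0.98]. *Fabp5* was at 13.6 CPM [12.8, 14.4], 13.4 CPM [12.7, 14.2] and 37.8 CPM [36.4, 39.1], with a log2 ratio of 1.41 at 30 h and -0.01 at 6 h. The control and 6 h libraries overlapped for *Fabp5*, and the 30 h library stood above both. At the red cell share free RNA would give 29.0, 23.6 and 66.1 CPM of *Fabp4* and 4.69, 6.60 and 13.4 CPM of *Fabp5*. With free RNA subtracted the log2 ratio of 30 h to control was 0.74 for *Fabp4* and 1.36 for *Fabp5*, both still past the limit. Against 6 h it was 0.01 for *Fabp4*, no longer past it, and 1.70 for *Fabp5*. Outside the few barcodes rich in *Fabp4* described below, *Fabp4* was at 17.1, 14.1 and 22.5 CPM. The subtraction thus took off more *Fabp4* than those ECs held. In aCap *Fabp5* was at 4.92, 3.32 and 5.53 CPM, so the subtraction took off more *Fabp5* than aCap held at 6 h and 30 h. Nothing is read from the subtracted ratios of either gene. In 9 barcodes of the 6 h library that carried melanoma markers, *Fabp5* was at 831 CPM [646, 1051], while the EC level of *Fabp5* at 6 h overlapped that of the control. *Fabp5* also has near-identical copies in the mouse genome, and how reads shared with them were counted is not given in the sources used here.

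The classes of *Fabp5* differed. In vein it was at 45.8 CPM [40.5, 51.5], 33.1 CPM [27.9, 38.9] and 179 CPM [167, 191], and the share of thinned vein barcodes with a UMI was 7.58%, 5.69% and 21.8% (21.6%, 17.4% and 50.2% unthinned). In aCap, the class with least *Fabp5* in the control, the thinned share was 0.618%, 0.672% and 1.11%, at a median of 10475.5, 10494.5 and 11455 UMIs against 10052, 9968 and 10501 in vein. In gCap it was at 8.92, 11.3 and 25.5 CPM. In artery it was at 30.3 CPM [21.5, 41.6], 72.6 CPM [57.7, 90.1] and 16.6 CPM [11.2, 23.7], highest at 6 h. This order did not hold with the stricter class limits, where artery was at 7.23, 9.24 and 13.9 CPM. In LEC 11 UMIs were counted in the control, 2 at 6 h and 0 at 30 h, where a count of 0 allows up to 5.51 CPM, the level of 3 UMIs. With the stricter class limits LEC was at 0 CPM in the control, 5.03 CPM at 6 h and 0 CPM at 30 h, so no fall was left. RNA of other cell types moved with the artery and LEC values. A list of 7 alveolar type 2 genes summed to 4143, 8840 and 85.7 CPM in artery and to 2570, 96.6 and 57.0 CPM in LEC, and 12 macrophage genes to 228, 878 and 31.5 CPM in artery. All 7 alveolar genes were detected in artery in each library, and 7, 5 and 3 of them in LEC. Of the macrophage genes 5, 5 and 8 were detected in artery, with *Marco*, *Adgre1*, *C1qa* and *Siglecf* at 0 in each library. Their part in the *Fabp5* values was not tested.

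*Fabp4* was concentrated in very few barcodes. In the control, 1% of barcodes held 86.3% of its UMIs, against 6.06% for *Lpl* and 3.57% for *Cd36*. The highest single barcode held 902, 753 and 570 *Fabp4* UMIs in the 3 libraries. The brackets of summed *Fabp4* levels and ratios do not cover this spread between barcodes. Barcodes with at least 20 *Fabp4* UMIs per 10000, a limit set after the counts were seen, numbered 40 in the control, 44 at 6 h and 72 at 30 h. They were 0.356% [0.255, 0.485], 0.416% [0.302, 0.558] and 0.776% [0.608, 0.976] of ECs and held 77.5%, 86.2% and 84.7% of *Fabp4* UMIs. Between 11 and 31 further barcodes per library had 10 to 20, and 16 or 17 of those counted had 20 to 40. A change in their number and a change in RNA per cell cannot be told apart in the levels summed over all ECs. Within the barcodes at or above the limit, which *Fabp4* itself picked, *Fabp4* was at 15762.5, 19764.1 and 17070.5 CPM. The log2 ratio of 30 h to control in them was 0.11 [0.07, 0.16]. In all other ECs summed together *Fabp4* was at 17.1, 14.1 and 22.5 CPM, under the level of free RNA at the red cell share in each library. Among them, vein barcodes were at 93.5, 74.7 and 159 CPM, above that level in each library. LEC barcodes were at 168, 134 and 57.0 CPM, above it in the control and at 6 h. Without the barcodes with at least 20 *Fabp4* UMIs per 10000 the *Fabp4* log2 ratio at 30 h was 0.37, under the limit for a call. That of *Fabp5* was 1.24. At 30 h against 6 h that of *Fabp4* was then 0.63 [0.56, 0.77], past the limit, and at 6 h against the control it turned from 0.43 to -0.26 [-0.39, -0.17]. The barcodes were taken out by their own *Fabp4* counts, so these *Fabp4* ratios are a description only.

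In these *Fabp4*-rich barcodes 4 other genes on the list, *Pparg*, *Meox2*, *Fabp5* and *Angptl4*, were at far higher levels than in the remaining ECs. The values below describe barcodes picked by *Fabp4* and carry no test. *Pparg*, a nuclear receptor that drives genes of fatty acid uptake and storage, was at 224 CPM [176, 280], 248 CPM [202, 303] and 241 CPM [203, 284] in them. In the other ECs it was at 1.47, 1.93 and 1.68 CPM, so the 0.356% to 0.776% of barcodes held 36.4%, 36.6% and 51.1% of its UMIs. *Meox2*, a homeobox factor known for its role with Tcf15 in fatty acid transport of heart endothelium, was at 94.2, 79.4 and 119 CPM against 1.14, 1.25 and 1.36 CPM, and 23.7%, 22.1% and 38.9% of its UMIs lay in them. *Fabp5* was at 445, 569 and 1156 CPM against 12.0, 10.9 and 29.6 CPM, and it stood highest at 30 h in both sets. The *Fabp4*-rich barcodes held 12.2%, 18.9% and 22.1% of *Fabp5* UMIs, so most lay elsewhere. *Angptl4* was at 124, 41.0 and 62.8 CPM against 7.83, 3.08 and 2.25 CPM, and 5.59%, 5.63% and 16.9% of its UMIs lay in the *Fabp4*-rich barcodes. *Cd36* differed less, at 2994, 3294 and 2369 CPM in the *Fabp4*-rich barcodes against 2077, 1702 and 2313 CPM. *Scarb1* was at 347, 218 and 238 CPM against 120, 141 and 127 CPM.

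In *Fabp4*-rich barcodes summed together *Lpl* was not lower at 30 h. Of them 19 of 40 in the control, 18 of 44 at 6 h and 38 of 72 at 30 h had no class. Only 5, 6 and 10 were gCap, and the sum was not split by class. *Lpl* was at 241 CPM [192, 300] in the control, 266 CPM [218, 323] at 6 h and 319 CPM [275, 368] at 30 h, from 82, 104 and 188 UMIs. In all other ECs it was at 684, 712 and 182 CPM. The *Fabp4*-rich barcodes were thus below the others in the control and 6 h libraries and above them at 30 h. The log2 ratio of 30 h to control was 0.40 [0.02, 0.80] in the former and -1.90 [-1.94, -1.88] in the latter. The same order held with limits of 10 and 40 *Fabp4* UMIs per 10000, where *Lpl* at 30 h was at 257 and 447 CPM. *Ucp2* was lower at 30 h in both sets, at 459, 313 and 161 CPM in the *Fabp4*-rich barcodes, a log2 ratio of -1.50 [-1.89, -1.13] at 30 h.

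**Figure D4:**
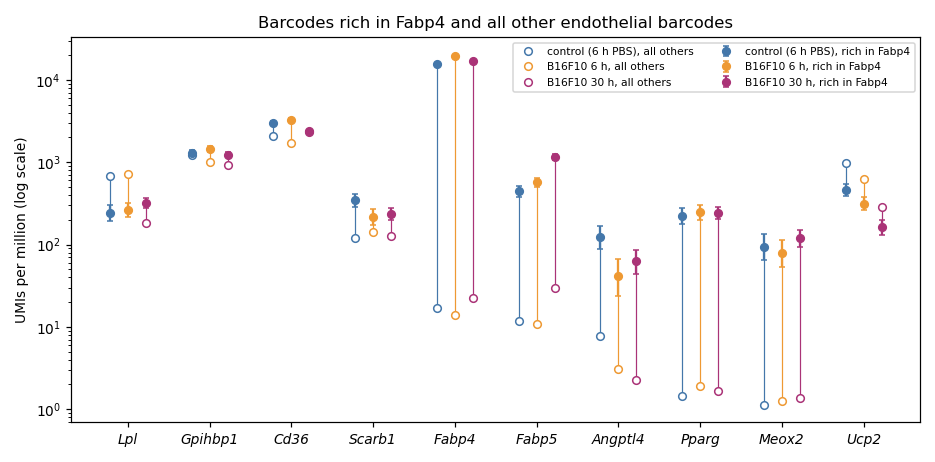
Levels of the 10 genes (x axis) in CPM on a log scale (y axis) in barcodes with at least 20 *Fabp4* UMIs per 10000 (filled points, exact 95% Poisson bars) and in all other endothelial barcodes (open points), joined by a line for each library. *Lpl* in the *Fabp4*-rich barcodes is at 241 and 266 CPM in the control and 6 h libraries, below the open points, and at 319 CPM at 30 h, above the open point.

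The genes that led the *Fabp4*-rich barcodes beside the 10 were named after their values were seen. They included *Rbp7*, a retinol binding protein, at 1036, 651 and 222 CPM against under 1 CPM in other ECs. *Timp4*, an inhibitor of metalloproteinases, was at 183, 284 and 370 CPM, and *Aqp7*, a glycerol channel, at 79.5, 159 and 132 CPM. *Tcf15*, the known partner of Meox2, was at 76.5, 118 and 250 CPM against 1.02, 1.78 and 2.00 CPM. Of 156 such barcodes over the 3 libraries, 75 had no class, 46 were vein, 21 gCap and 10 artery. A list of 12 vein genes summed to 3462, 3517 and 3521 CPM in them against 796, 611 and 677 CPM in the others, and 12 artery genes to 1911, 1616 and 1435 CPM against 782, 796 and 922 CPM. Of 12 macrophage genes, 7, 6 and 8 were at 0, and the list summed to 41.2, 38.4 and 32.3 CPM against 103, 126 and 69.3 CPM. Of 5 adipocyte genes, 3 were at 0 in the control (*Lep*, *Plin1* and *Adipoq*), 3 at 6 h (*Lep*, *Plin1* and *Cidec*) and 0 at 30 h. The adipocyte list summed to 121, 12.8 and 56.0 CPM against under 1 CPM in the others. Doublet calls were 2.50%, 11.4% and 8.33% of these barcodes.

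*Angptl4*, the inhibitor of the lipase (chromosome 17, 33773750 to 33781830, minus strand), was scarce, at 8.27 CPM [7.69, 8.88] in the control, 3.25 CPM [2.88, 3.65] at 6 h and 2.69 CPM [2.34, 3.07] at 30 h. The control was highest, and both melanoma libraries were below it. The log2 ratio of plain CPM was -1.35 [-1.55, -1.15] at 6 h and -1.62 [-1.84, -1.40] at 30 h. Barcodes without a class held 47.1%, 41.5% and 42.0% of its UMIs. Barcodes with fibroblast markers had far more, at 465, 148 and 50.6 CPM in 27, 21 and 18 barcodes. What part RNA of such cells had in the endothelial value was not tested. Without barcodes carrying RNA of other cell types, which left 219, 457 and 259 barcodes, the log2 ratio of (CPM + 1) at 30 h turned to 0.29. That filter counted *Hopx* and *Clic5*, at 641 and 827 CPM over all control ECs, as alveolar genes. With the alveolar and airway lists left out of it, 7190, 6021 and 5267 barcodes were left. In that and every other alternative the ratio stayed between -1.67 and -0.49.

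*Pparg* over all ECs (chromosome 6, 115360951 to 115490399, plus strand) was at 2.30 CPM [2.00, 2.63], 3.03 CPM [2.68, 3.42] and 3.41 CPM [3.02, 3.84]. Among the 5 classes it was highest in LEC, at 70.6 CPM [51.1, 95.0], 92.0 CPM [65.7, 125] and 66.2 CPM [46.3, 91.6], with intervals that overlap. LEC held 20.6%, 15.1% and 12.9% of its UMIs. In artery it was at 12.8, 31.9 and 15.5 CPM and in barcodes without a class at 17.8, 22.3 and 21.9 CPM. Without *Fabp4*-rich barcodes *Pparg* in artery was at 13.0, 11.9 and 14.5 CPM. With the stricter class limits it was at 12.0, 18.5 and 25.3 CPM there, so no order of the libraries held in artery. In barcodes without a class *Pparg* was at 5.52 [3.78, 7.80], 12.3 [9.76, 15.3] and 5.61 [3.93, 7.77] CPM without the *Fabp4*-rich barcodes. There 6 h was highest without them, while with them 6 h and 30 h were close. In the 6 h library 1 EC barcode held 63 *Pparg* UMIs, and its class is not given. In gCap *Pparg* was at 0.516, 0.481 and 0.951 CPM, from 32, 30 and 50 UMIs, and at 0.484, 0.466 and 0.476 CPM without *Fabp4*-rich barcodes. *Meox2* (chromosome 12, 37108540 to 37179534, plus strand) was at 1.49 CPM [1.25, 1.76], 1.60 CPM [1.35, 1.89] and 2.21 CPM [1.90, 2.56]. Neither transcription factor passed 1.12 CPM in gCap or aCap of any library.

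Other genes of lipid handling were counted in 6 lists, 119 genes of which 77 reached the mean of 5 CPM. The lists were chosen with earlier results of these data known, so their counts are a description. At 6 h 3 were lower than in the control and 2 higher, beside 1.81% and 2.57% of all genes. At 30 h 9 were lower and 6 higher, beside the 7.34% and 5.87% of all genes given above. None of 9 lipase partners and inhibitors and none of 12 lipoprotein receptor and transcytosis genes was called at 30 h. *Lmf1* and *Sel1l*, which help to fold the lipase, were at 18.4, 15.4 and 16.8 CPM and at 72.3, 70.0 and 70.6 CPM. Of 7 genes of fatty acid transport and activation, 1 was higher, *Dbi*, a carrier of acyl-CoA, at 118, 123 and 188 CPM.

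The most calls fell among genes of storage and lipolysis, with 6 of 15 lower and 1 higher at 30 h, beside 7.34% and 5.87% of all genes. Since this list too was chosen with results of these data known, nothing is read from the count. *Pnpla2*, the first lipase of stored triglyceride, was at 177, 138 and 84.4 CPM, a log2 ratio of -1.06 [-1.11, -1.03]. *Lipe*, the hormone-sensitive lipase that acts after it, was at 84.2, 81.5 and 51.3 CPM. *Mgll*, the lipase of the last step, went the other way, at 149, 125 and 239 CPM. The phosphatidate phosphatases *Lpin1* and *Lpin2* were at 22.4, 17.0 and 11 CPM and at 149, 131 and 77.7 CPM. *Agpat2*, an acyltransferase of triglyceride synthesis, was at 18.6, 16.4 and 12.3 CPM. *Hilpda*, an inhibitor of Pnpla2, was at 742, 433 and 516 CPM, lowest at 6 h. The median of the list was -0.13, beside -0.07 over all genes.

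Of 17 genes of mitochondrial oxidation and uncoupling, 3 were lower at 30 h and 1 higher, beside 7.34% and 5.87% of all genes, with a median log2 ratio of -0.32 beside -0.07. *Cpt1a*, which brings fatty acids into mitochondria, was at 107, 92.4 and 75.2 CPM. *Acadl*, a dehydrogenase of fatty acid oxidation, was at 258, 218 and 150 CPM, and *Slc25a27*, another uncoupling carrier, at 23.8, 20.5 and 16.2 CPM. *Acads*, the short-chain dehydrogenase, was higher, at 7.99, 7.36 and 13.5 CPM. Of 17 regulators, 3 were higher at 30 h and none lower, beside 5.87% and 7.34% of all genes. *Apln*, a peptide ligand, was at 26.8, 33.0 and 76.5 CPM, its receptor gene *Aplnr* at 38.4, 38.7 and 77.4 CPM, and *Meox1*, a homeobox relative of *Meox2*, at 21.9, 24.3 and 52.5 CPM.

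**Figure D5:**
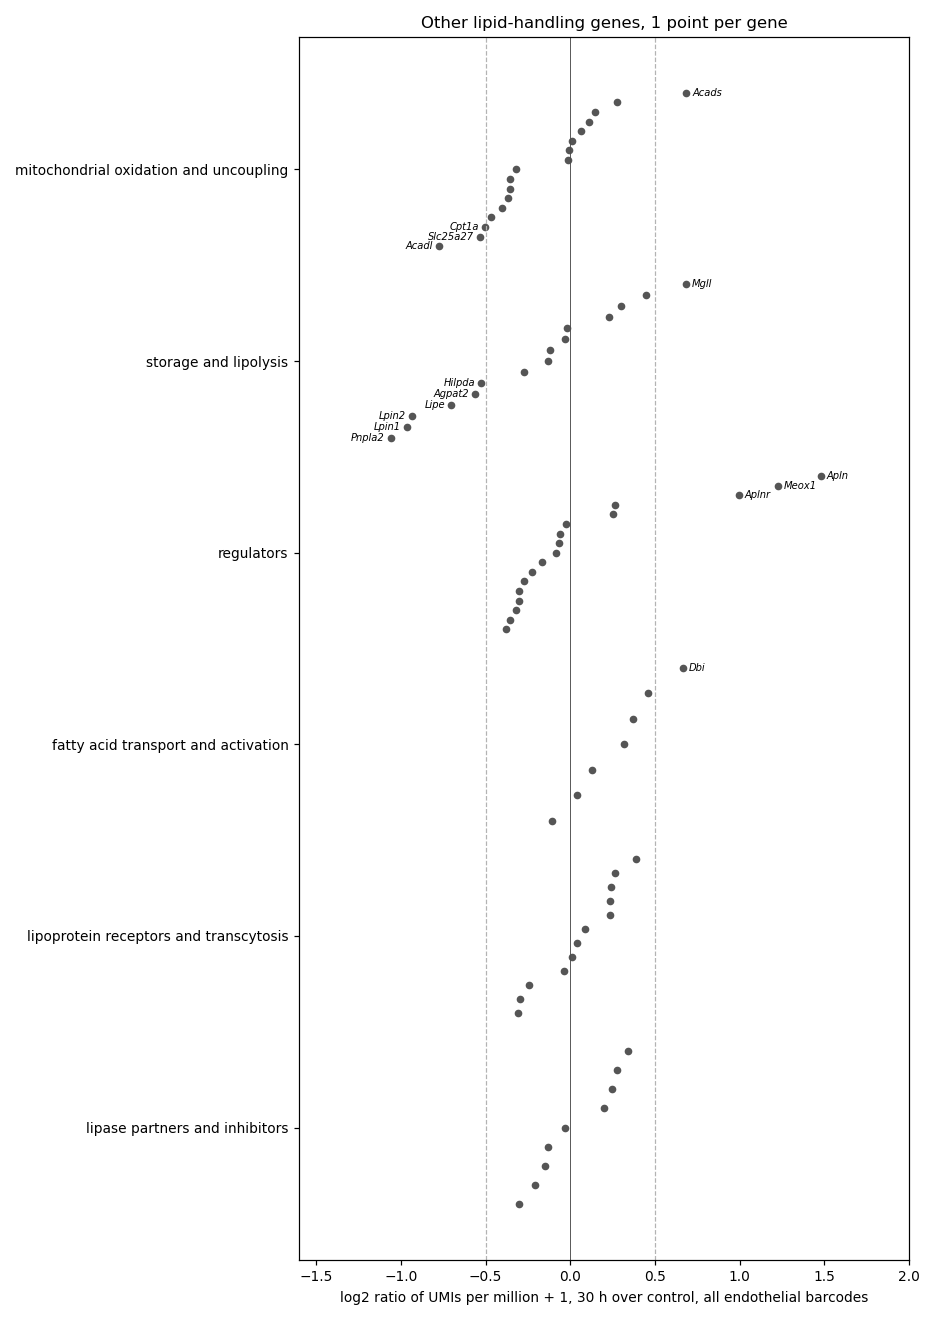
Log2 ratio of (CPM + 1) between 30 h and control over all endothelial barcodes (x axis) for the 77 tested genes of 6 lists (rows), with 1 point per gene and dashed lines at the limits for a call. The named points lie at or past the limits, 9 lower and 6 higher.

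Genes with levels most like *Lpl* were ranked by the correlation of log2 levels over 15 sums, 5 classes in 3 libraries, among 9231 genes. The 15 sums share libraries, so this is a description. *Erg*, an endothelial transcription factor, came first (r = 0.933), followed by *Tmf1* (0.910), *Trim56* (0.909), *Zfp608* (0.901) and *Mon2* (0.896). *Gpihbp1* reached 0.716 and *Ucp2* 0.513. *Erg* itself was at 304, 275 and 253 CPM, a far smaller difference between libraries than that of *Lpl*. For *Ucp2* the closest were *Tacc1* (0.910), *Acadsb* (0.902), *Rbm39* (0.887), *Bach1* (0.886) and *Stat2* (0.879). Across single thinned gCap barcodes *Lpl* and *Gpihbp1* had a Spearman rho of 0.12, 0.13 and 0.07. Among all pairs of the listed genes it was the highest in the control and at 6 h, but not at 30 h. Median counts were 1, 1 and 0 UMIs for *Lpl* and 3, 2 and 2 UMIs for *Gpihbp1*. Counting error at so few UMIs lowers rho, so how closely the genes go together in single cells cannot be read from it.

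Other measures moved between the libraries as well. A list of 8 immediate early genes, which digestion can raise, summed to 7493, 10196 and 5254 CPM, and 6 heat shock genes to 1057, 2355 and 1252 CPM. The macrophage list summed to 103, 126 and 69.0 CPM and the red cell list to 3249, 2119 and 829 CPM. The 7 alveolar type 2 genes summed to 534, 376 and 175 CPM, 4 neutrophil genes to 5.62, 41.1 and 10.4 CPM and 9 lymphocyte genes to 9.49, 11.8 and 23.6 CPM. In gCap, where most *Lpl* lay, the alveolar type 2 list was at 159, 119 and 82.6 CPM. Their part in the values of *Lpl* and *Ucp2* was not tested beyond the alternatives. Within the barcodes below the median share of immediate early and heat shock genes, and in all other alternatives, the log2 ratio at 30 h stayed between -1.91 and -1.78 for *Lpl* and between -1.93 and -1.72 for *Ucp2*.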

How the data were processed

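The deposited values are counts of UMIs per gene and barcode, which the authors made from 3′ droplet libraries and left unfiltered (1792904 to 1911655 barcodes listed per library, most of them empty, and 124085451 to 140601123 UMIs). Per the file headers and the submitters' processing notes the authors used Cell Ranger 7.2.0, with Seurat 4.4.0 and build mm10, while the study's methods name an older Cell Ranger. Whether intronic reads were counted is not given in the sources used here. Groups came from the treatment in the labels, and 0 columns of values were left unused.

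UMIs were summed per library and class with python 3.11.15, numpy 2.4.6, scipy 1.17.1 and pandas 2.3.3, scaled to CPM and compared as log2 of the ratio of (CPM + 1). No p-value was computed, since each group is 1 library. Intervals are exact at 95%. PCR copies are collapsed by the UMI. Doublets were kept, and an alternative left out the barcodes of highest Scrublet score (scanpy 1.11.5), 9.42%, 8.88% and 7.63% of ECs. Free RNA came from droplets with up to 100 UMIs, scaled by red cell genes, which gives an upper value. The comparison code was run on simulated Poisson counts. Those lack the spread between barcodes and libraries, so the run checks the code only. Gene positions are from GENCODE M21 on GRCm38, where all 10 IDs were found.

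The members and lists were chosen with earlier results of these data known. Named genes were the 10 members, called genes of the 6 lists, and for likeness the 5 genes of highest Pearson r among those with at least 20 CPM in any of the 15 sums. Genes of the *Fabp4*-rich barcodes were chosen after their values were seen. Alternatives were set for the barcode limits, endothelial gate, class gate, doublets, other cell types, stress genes, scaling, minimum CPM, pseudocount, fold, barcode weight, thinning and mitochondrial limit. Those on class mix, free RNA, gCap alone, thinned sums, narrower cell type lists and *Fabp4*-rich barcodes were added after seeing the data.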

Additional observations from a re-analysis of the deposited data

Results flagged for a closer look

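In 18 cases a gene differed between 2 libraries in opposite directions in a pair of endothelial classes, 11 for *Fabp4* and 7 for *Fabp5*. They come from 10 genes in 3 comparisons. No share over all genes is given, so nothing is read from this count. The pair furthest apart is given for each gene and comparison, 5 in all. The differences between classes were not tested, and each class is 1 sum per library. *Fabp4* at 30 h against 6 h had a log2 ratio of 1.13 [0.89, 1.58] in aCap and -3.03 [-3.30, -2.80] in artery, and without the *Fabp4*-rich barcodes 0.37 and 0.68. At 30 h against the control it was 1.36 [1.30, 1.52] in gCap and -1.67 [-2.31, -1.10] in LEC, and without those barcodes 0.35 and -1.55. At 6 h against the control it was 2.81 [2.55, 3.10] in artery and -1.81 [-2.27, -1.62] in aCap, and without those barcodes 0.53 and 0.09. With class limits of 2 times as many UMIs *Fabp4* was at 7.14, 9.31 and 10.0 CPM in aCap (control, 6 h, 30 h), so the lower aCap level at 6 h turned to a higher one. It was then at 13.1, 9.39 and 16.2 CPM in gCap, 21.7, 203 and 40.5 CPM in artery and 191, 204 and 61.4 CPM in LEC. The arterial class at 6 h held 5 *Fabp4*-rich barcodes of 148 and the aCap class 0 of 1206. In the control the aCap class held 1 of 1470. With that barcode *Fabp4* in control aCap was at 30.1 CPM, and without it at 7.32 CPM. *Fabp5* at 30 h against 6 h was 2.40 [2.18, 2.70] in vein and -2.06 [-2.78, -1.51] in artery, from 82 arterial UMIs at 6 h and 30 at 30 h, and 2.56 and -1.70 without the *Fabp4*-rich barcodes. With those stricter limits arterial *Fabp5* was at 9.24 CPM at 6 h and 13.9 CPM at 30 h, the other way around. At 30 h against the control *Fabp5* was 1.94 [1.77, 2.17] in vein, while LEC held 11 UMIs in the control and 0 at 30 h. With the stricter limits LEC was at 0 CPM in both, so that opposite direction was gone. The artery class carried 7 alveolar type 2 genes at 4143 CPM (control), 8840 CPM (6 h) and 85.7 CPM (30 h), and 12 macrophage genes at 228, 878 and 31.5 CPM. In LEC the alveolar type 2 list was at 2570, 96.6 and 57.0 CPM. Their part in these values was not tested.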

How the results depend on the processing

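No paired analysis was possible because each group is 1 library and the results come from no test. Of 30 log2 ratios (10 genes in 3 comparisons), 20 kept their sign in all 17 alternatives run for them, and 10 did not. The *Angptl4* ratio of 30 h to control turned from -1.33 to 0.29 without barcodes carrying RNA of other cell types, which left 219 to 457 barcodes per library. With that setting set aside, this ratio stayed between -1.67 and -0.49, and 23 of the 30 kept their sign. *Lpl* at 30 h against control ran from -1.91 to -1.78, *Ucp2* from -1.93 to -1.72, *Fabp5* from 1.02 to 3.67 and *Fabp4* from 0.37 to 2.99, and the cause of these ranges was not tested.

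Without barcodes of other cell types' RNA the shares of all genes called were far larger, so its counts cannot be set beside the others. At 6 h 16.7% were lower and 16.02% higher (1.81% and 2.57% as reported), at 30 h against control 22.1% and 17.1% (7.34% and 5.87%), and at 30 h against 6 h 18.5% and 15.3% (6.82% and 6.39%). At a log2 limit of 1 the shares were 0.108% lower at 6 h, 0.806% higher at 30 h against control and 1.00% higher against 6 h, and with a pseudocount of 10 CPM 3.28% were higher at 30 h against 6 h. In the other settings named here they were 2.095% and 2.104% lower at 6 h, 2.30% to 2.75% higher at 6 h, 5.83% higher at 30 h against control and 5.81% to 8.24% higher against 6 h. The number of the 10 genes lower at 6 h was 1, and it became 2 with at least 300 genes per barcode and no upper limit, 2 with a minimum of 1 CPM, 3 without barcodes of other cell types' RNA and 0 at a log2 limit of 1. The number higher at 6 h was 0. It became 1 (*Fabp4*) with at least 300 genes, without other types' RNA with the alveolar and airway lists left out, in barcodes below the median of stress genes, with free RNA subtracted and with barcodes thinned to 2000 UMIs, and 2 without other types' RNA. The number higher at 30 h against control was 2 and became 1 (*Fabp5*) at a log2 limit of 1 and without *Fabp4*-rich barcodes, and 3 (*Pparg* added) without other types' RNA. The number higher at 30 h against 6 h was 2. It became 1 (*Fabp5*) with at least 300 genes, with at least 5 UMIs of *Pecam1* plus *Cdh5*, without doublet calls, in barcodes below the median of stress genes, at a log2 limit of 1, with a pseudocount of 10 CPM, with the class mix of the control and with free RNA subtracted, 3 (*Cd36* added, at 0.50 and 0.51) with median of ratios scaling and in gCap alone, and 4 without other types' RNA. *Lpl* and *Ucp2* were called lower at 30 h, against both other libraries, in every alternative run, and *Angptl4* or *Scarb1* was called as well in a few. *Lpl* and *Ucp2* were chosen for low counts at 30 h, so this shows only how little their values depend on the settings. With a class limit of 2 times as many gate UMIs, 71 of 150 class levels stayed within their counting interval. Another scaling moved the median of all genes by at most 0.07. Depth limits *Pparg*, *Meox2* and *Angptl4* most, at 135 to 751 UMIs per library.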
